A study of Mus musculus with 2 samples.

Results

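The Ugt2 glucuronosyltransferase cluster of the mouse is the run of 8 Ugt2 genes on chromosome 5 that holds Ugt2b34, Ugt2b1, Ugt2b35, Ugt2b36, Ugt2b5, Ugt2b37, Ugt2a3 and Ugt2b38. Its bins were set by the positions of these genes, which were chosen with earlier results of these data known. Every 50 kb bin that overlaps one of these genes and every bin between them was taken. This gave 12 of the 54521 bins of the contact tables, at chr5:86850001-87450000 in mm10. Of these bins, 9 hold part of a member and 3 hold none. The 8 members are the only protein-coding genes annotated in the 12 bins, beside 13 pseudogenes and 2 small nuclear RNA genes. All 8 members matched the gene table, and every one of the 12 bins had contacts in both libraries.

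Foxa2 HiChIP joins DNA ends that lie close together in the nucleus, then enriches for fragments bound by Foxa2, a forkhead pioneer factor of liver, so that each sequenced contact is a pair of genomic positions. The GW4064 library came from liver of wildtype mice given 1 oral gavage of GW4064, an agonist of FXR, the nuclear receptor for bile acids, and the vehicle library from wildtype mice given the propylene glycol and Tween 80 vehicle alone. Livers were taken 4 h after gavage. There was 1 library for each treatment. The sources used here give no dose, strain, sex, age or number of animals. The GW4064 library held 29003442 contacts and the vehicle library 22686004, a depth ratio of 1.28, so no test between treatments was possible and every interval below covers counting error only. A bulk library cannot tell more cells with a contact apart from more contacts in each cell, and since no RNA was measured the tissue label could not be checked against marker genes.

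UDP-glucuronosyltransferases sit in the membrane of the endoplasmic reticulum and transfer glucuronic acid from UDP-glucuronic acid to small lipophilic molecules, which makes them soluble enough for bile or urine. The Ugt2b enzymes of liver are known for conjugating steroid hormones, bile acids and many drugs, while the Ugt1a enzymes are known for bilirubin. In humans, UGT2B4 conjugates bile acids and is a described FXR target gene, UGT2B7 conjugates morphine, and UGT2A3 conjugates bile acids. In the rat, Ugt2b1 conjugates bisphenol A.

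The genes lie in the order given above. Ugt2b34 occupies chr5:86889770-86906937 and Ugt2b1 chr5:86916639-86926503, so that both share a bin. Ugt2b35 lies at chr5:87000860-87013274, Ugt2b36 at chr5:87065927-87092555 and Ugt2b5 at chr5:87124946-87140340. Ugt2b37 lies at chr5:87240492-87254788, Ugt2a3 at chr5:87324972-87337195 and Ugt2b38 at chr5:87409939-87424203. Only Ugt2b35 is on the plus strand. At this resolution most member bins hold a whole gene, exons, introns and flanking sequence together, and contacts of a promoter cannot be separated from those of its gene body. Ugt2b34 and Ugt2b37 are each split over 2 bins, with the promoter in the second. The first bin of the cluster thus holds only the 3' part of Ugt2b34, beside sequence outside any member.

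The 8 promoters are printed because 7 of them share a pattern that few other promoters hold. Each line gives the 100 bases before the annotated gene start, from RefSeq promoter sequences on GRCm38.p6 (the build also called mm10), 5' to 3' on the strand of the gene, and capitals mark a pattern of 13 letters, GTTA and TTAAC with any 4 letters between them.
Ugt2b34 promoter, chr5:86906938-86907037, minus strand: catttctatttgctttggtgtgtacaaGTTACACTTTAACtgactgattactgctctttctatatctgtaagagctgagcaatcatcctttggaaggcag
Ugt2b1 promoter, chr5:86926504-86926603, minus strand: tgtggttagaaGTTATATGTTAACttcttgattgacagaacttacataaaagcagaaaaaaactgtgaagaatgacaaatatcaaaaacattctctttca
Ugt2b35 promoter, chr5:87000760-87000859, plus strand: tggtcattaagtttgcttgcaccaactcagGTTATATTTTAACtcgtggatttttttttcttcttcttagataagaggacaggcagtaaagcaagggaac
Ugt2b36 promoter, chr5:87092556-87092655, minus strand: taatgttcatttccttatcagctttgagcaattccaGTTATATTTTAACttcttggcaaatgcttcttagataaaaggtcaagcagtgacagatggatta
Ugt2b5 promoter, chr5:87140341-87140440, minus strand: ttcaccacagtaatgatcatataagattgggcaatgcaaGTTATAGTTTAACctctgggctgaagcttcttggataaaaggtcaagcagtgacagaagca
Ugt2b37 promoter, chr5:87254789-87254888, minus strand: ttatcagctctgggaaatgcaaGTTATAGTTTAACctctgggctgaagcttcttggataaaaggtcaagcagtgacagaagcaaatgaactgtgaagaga
Ugt2a3 promoter, chr5:87337196-87337295, minus strand: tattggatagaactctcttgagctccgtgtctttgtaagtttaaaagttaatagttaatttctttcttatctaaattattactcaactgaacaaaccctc
Ugt2b38 promoter, chr5:87424204-87424303, minus strand: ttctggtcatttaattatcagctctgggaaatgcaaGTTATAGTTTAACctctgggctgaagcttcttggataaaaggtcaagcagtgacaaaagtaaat
The pattern was found in 7 of the 8 member promoters, all but that of Ugt2a3, when both strands were searched from 250 bases before to 50 bases after each start. It was found in 62 of 32851 promoters in the table (0.189%), of which 55 belong to genes outside the cluster, none of them another Ugt2 gene. Its first base lay 61 to 89 bases before the start in the 7 members. The letters were chosen after the sequences had been seen, and a match describes a sequence, not a bound site. Some member promoters are alike, up to 87.3% identical, so their matches are not separate observations.

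Forkhead letters were less particular to the cluster's promoters. TGTTTAC was found in the promoters of Ugt2b35, Ugt2b37 and Ugt2b38, 3 of 8, against 3.65% of all promoters. The promoters of Ugt2b37 and Ugt2b38 are 87.3% identical, so their matches are not separate observations. TATTTAC was found in that of Ugt2b1 alone, 1 of 8, against 3.04% of all. Forkhead factors such as Foxa2 bind letters of this kind. None of these matches overlaps the 13-letter pattern. AGGTCA and TGACCT with 1 letter between them, an inverted repeat of the site type classically bound by FXR with its RXR partner, was in 0 of the 8 and in 3 of all promoters.

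Bins of the cluster touched each other more often than bins at the same distances elsewhere did, and by nearly the same factor in both libraries. Between different bins of the cluster the GW4064 library held 2208 contacts and the vehicle library 1531. Set against the mean of all bin pairs at the same distance on chromosomes 1 to 19 and X, this was 2.29 times the expected number in the GW4064 library (exact Poisson 95% interval 2.20 to 2.39) and 2.26 times in the vehicle library (2.15 to 2.38). These observed over expected values are the base of much of what follows. After scaling to the totals at each distance, the log2 ratio of GW4064 over vehicle was 0.02, with an exact conditional binomial 95% interval of -0.08 to 0.11.

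**Figure D1:**
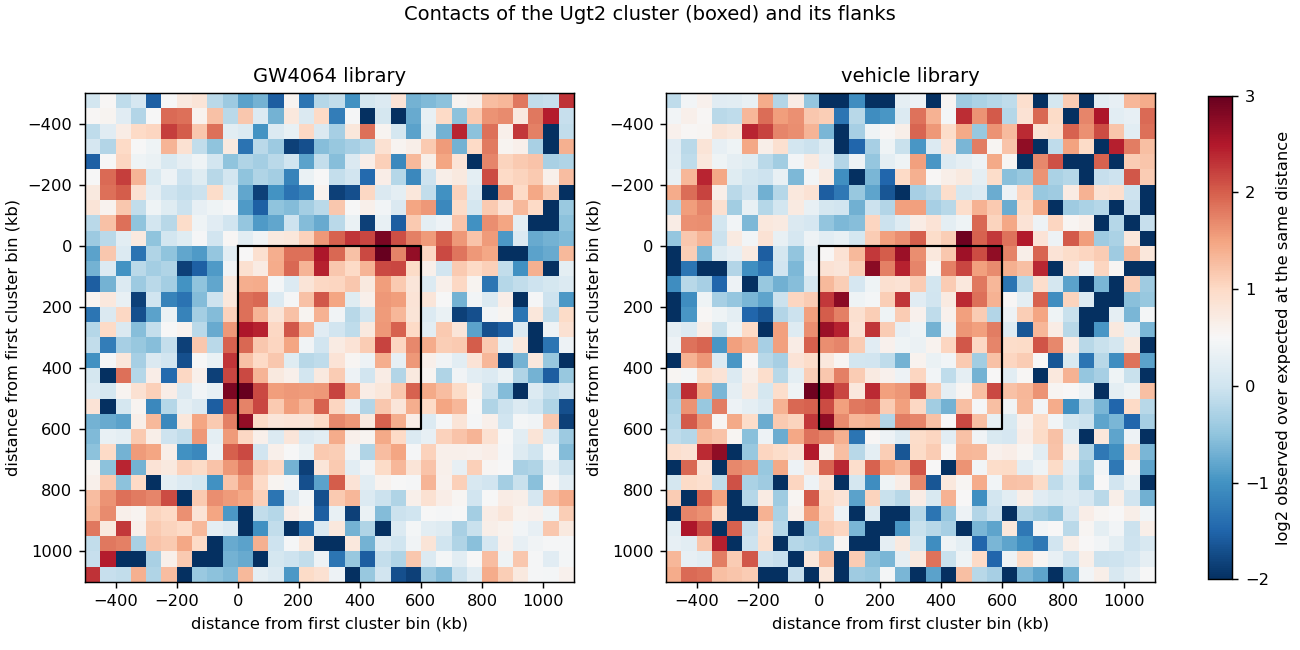
Contacts between 50 kb bins around the Ugt2 cluster in the GW4064 library (left) and the vehicle library (right), as log2 of observed over expected at the same distance, with both axes in kb from the start of the first cluster bin and the 12 cluster bins boxed. Values are limited to the range of the colour bar and pairs with no contact take its lowest colour. Inside the box most pairs are above the expected level in both libraries, and pairs of its first bins with its last are among the darkest red.

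By this measure no other window of this size was as dense in contacts. Among 50081 sliding windows of 12 bins, the median of observed over expected was 1.02 in either library, and the 95th percentile was 1.48 in the GW4064 library and 1.42 in the vehicle library. The cluster, whose members were chosen with earlier results of these data known, ranked 1 in both libraries, with 0 windows above it. The next window not overlapping it had 2.12 in the GW4064 library, on chromosome 16 with no protein-coding gene. In the vehicle library the next one had 2.04, on chromosome 3 with the carbonic anhydrase genes Car13, Car1, Car3 and Car2.

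That rank rests on an expectation from distance alone. When the expectation also used the contacts of both bins beyond 1 Mb or with other chromosomes, the cluster had 2.57 in the GW4064 library and 2.81 in the vehicle library. On that scale 1213 windows (2.42%) were higher in the GW4064 library and 255 (0.509%) in the vehicle library. When it used all contacts of both bins, which include the inside contacts themselves, the cluster had 1.47 in the GW4064 library and 1.63 in the vehicle library. All of these values are above the expected level of 1.

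The excess was larger between distant bins than between neighbours, though not evenly so. Neighbouring bins, 50 kb apart, had 83.4 contacts per pair in the GW4064 library (1.93 times expected) and 56.5 in the vehicle library (1.80 times expected). At 100 kb the factor was 2.42 in the GW4064 library and 2.75 in the vehicle library, and at 250 kb it was 3.14 in the GW4064 library and 3.03 in the vehicle library. Pairs 450 kb apart had 4.76 times the expected number in the GW4064 library (3.61 to 6.17) and 3.84 times in the vehicle library (2.63 to 5.42). The lower bound of the interval was above 1 at every one of the 11 distances in both libraries. At each of the 11 distances the interval of the log2 ratio of GW4064 over vehicle included 0.

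**Figure D2:**
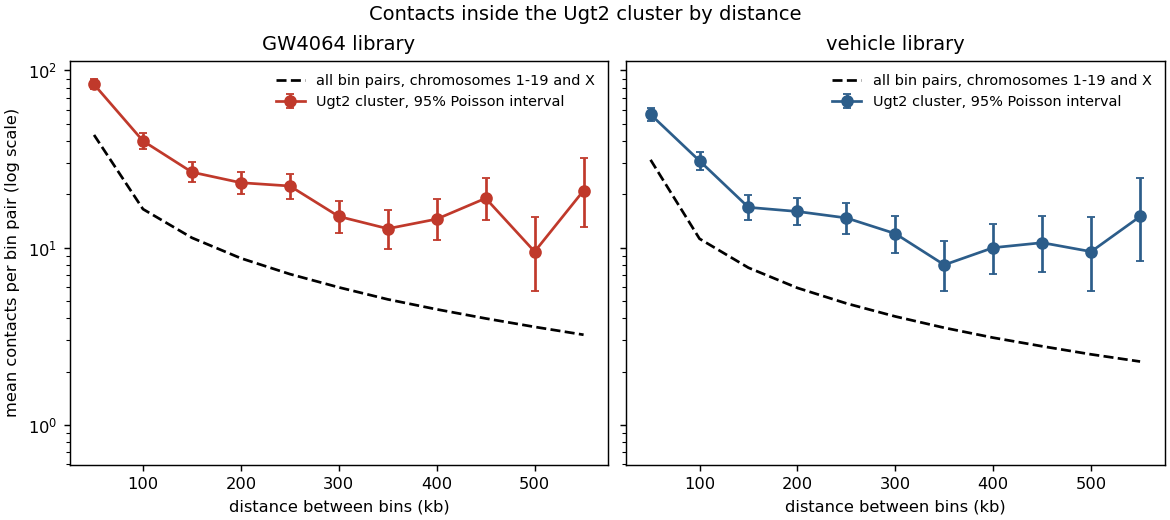
Mean contacts per bin pair (log scale) against the distance between bins in kb, for the GW4064 library (left) and the vehicle library (right), with points for pairs inside the Ugt2 cluster, bars for exact Poisson 95% intervals of the count and a dashed line for all bin pairs of chromosomes 1 to 19 and X. Every point lies above the dashed line in both libraries, and the gap is wider at 450 kb than at 50 kb.

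Single pairs show which bins carry the long-range contacts. The bin at the Ugt2b34 end and the bin of Ugt2a3, 450 kb apart, shared 32 contacts in the GW4064 library (8.02 times expected) and 17 in the vehicle library (6.12 times expected). The first and last bins, with Ugt2b34 and Ugt2b38, shared 21 contacts in the GW4064 library (6.51 times expected) and 15 in the vehicle library (6.58 times expected). Ugt2b34's first bin and the bin of Ugt2b5 shared 41 contacts in the GW4064 library (5.78 times expected) and 30 in the vehicle library (6.19 times expected). These were the 3 highest pairs of the GW4064 library. The pairs with Ugt2b38 and Ugt2b5 were also among the 3 highest of the vehicle library. There the highest pair was the bin shared by Ugt2b34 and Ugt2b1 with the bin of Ugt2b35, with 63 contacts in the GW4064 library (3.82 times expected) and 76 in the vehicle library (6.77 times expected). This shared bin holds the Ugt2b34 promoter. It had 4.46 times expected in the GW4064 library and 4.51 in the vehicle library with the bin of Ugt2a3. With the bin of Ugt2b38 it had 1.96 in the GW4064 library and 3.20 in the vehicle library. With that of Ugt2b5 it had 5.39 in the GW4064 library and 5.40 in the vehicle library.

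Of the 66 pairs inside the cluster, 55 had at least 20 contacts over both libraries, and 53 of these were above the expected number in the GW4064 library and 52 in the vehicle library. Counted at 1.5-fold, 6 of the 55 were higher in the GW4064 library, against 14.5% of all bin pairs at these distances with as many contacts, and 4 were lower, against 12.2%. As shares of the 55 these are 10.9% and 7.27%, both under the background. At 2-fold the counts were 2 higher, against 4.84%, and 0 lower, against 3.42%. The median log2 ratio over the 55 was 0.04. An interval lay above 0 for 1 pair and below 0 for 1 pair.

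The pair above 0 joined the bin of Ugt2b35 to the bin between Ugt2b5 and Ugt2b37, which holds no member, with 32 contacts in the GW4064 library and 9 in the vehicle library (log2 ratio 1.27, 0.17 to 2.52). The pair below 0 was the one of Ugt2b35 with the bin of Ugt2b34 and Ugt2b1 already described (-0.83, -1.33 to -0.32). Ugt2b35 thus takes part in both. The next pairs by size, 1.13 and 0.98 above and 2 at -0.77 below, had intervals that include 0.

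Gene by gene, 27 pairs of members do not share a bin, and 24 of them were above the expected number in both libraries, 21 with the lower bound of the interval above 1 in both. The values ran from 0.946 to 6.13 in the GW4064 library and from 0.849 to 6.77 in the vehicle library. Of the other 3 pairs, 2 involve Ugt2b37. Ugt2b36 with Ugt2b37 had 19 contacts in the GW4064 library (0.946 times expected) and 16 in the vehicle library (1.17 times expected). Ugt2b5 with Ugt2b37 had 34 contacts in the GW4064 library (1.22 times expected) and 17 in the vehicle library (0.898 times expected). Ugt2b36 with Ugt2b38 had only 9 contacts in the GW4064 library and 3 in the vehicle library, so its values of 1.76 times expected in the GW4064 library and 0.849 in the vehicle library are loosely determined.

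For 25 of the 27 gene pairs the interval of the log2 ratio included 0, for 0 it lay above and for 2 below. Both pairs below 0 join Ugt2b35 to the 5' end of the cluster and share a bin, so they are not separate observations. Ugt2b34 with Ugt2b35 had 105 contacts in the GW4064 library and 113 in the vehicle library (-0.66, -1.06 to -0.27).

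Near-identical copies can exchange reads, and the sources used here do not say how reads with several matches were placed. Between the 28 pairs of promoters, 300-base sequences compared end to end, identity had a median of 53.1% and ran from 48.4% to 87.3%. Ugt2b37 and Ugt2b38 were the most alike at 87.3%, Ugt2b5 and Ugt2b38 had 84.2% and Ugt2b5 and Ugt2b37 had 76.5%. Ugt2b37 with Ugt2b38 had 2.24 times the expected contacts in the GW4064 library and 1.83 times in the vehicle library. Ugt2b5 with Ugt2b38 had 2.01 times in the GW4064 library and 3.42 times in the vehicle library. For Ugt2b5 with Ugt2b37 the values were 1.22 in the GW4064 library and 0.898 in the vehicle library. Over the 27 gene pairs, which share genes and bins, Spearman's rho of identity with observed over expected was -0.518 in the GW4064 library and -0.460 in the vehicle library, given as a description. Promoter identity does not measure how alike whole 50 kb bins are, and the part of misplaced reads in the contact counts was not tested.

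Each member had most of its nearby contacts inside the cluster. Of its contacts with other bins of the cluster and with the 2 Mb on either side, the share that fell inside the cluster was 55.8% to 76.1% across members in the GW4064 library and 53.7% to 77.6% in the vehicle library. Many cluster bins are also the nearest bins to a member, and these shares are not corrected for distance. The values that follow are. Ugt2b34, at the edge of the cluster, had the highest excess with the rest of it, 3.45 times expected in the GW4064 library (3.18 to 3.73) and 3.63 times in the vehicle library (3.30 to 3.98). Ugt2b37 had the lowest, 1.72 times in the GW4064 library (1.57 to 1.89) and 1.43 times in the vehicle library (1.26 to 1.61). The other 6 ran from 2.18 to 2.77 in the GW4064 library and from 2.14 to 2.98 in the vehicle library, with Ugt2b36 lowest of them in both, and values next to each other in order among these 6 had overlapping intervals. In both libraries the intervals of Ugt2b34 and Ugt2b37 stand apart from each other.

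Contacts with the rest of the cluster differed between libraries beyond counting error for 2 members, in opposite directions. Ugt2b37 had 457 such contacts in the GW4064 library and 263 in the vehicle library (log2 ratio 0.27, 0.05 to 0.50). Ugt2b35 had 416 in the GW4064 library and 342 in the vehicle library (-0.23, -0.44 to -0.02). For the other 6 the interval included 0. No share of all loci with an interval that excludes 0 is given, here or for the other classes of contact. Members named for such an interval are thus not shown to stand out.

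Local contacts, which join a bin to any other bin within 1 Mb, were close to even between libraries. Ugt2b34, over its 2 bins, had 964 in the GW4064 library and 712 in the vehicle library (log2 ratio -0.07). Ugt2b1 had 520 in the GW4064 library and 398 in the vehicle library (-0.12), and Ugt2b35 had 505 in the GW4064 library and 417 in the vehicle library (-0.23, -0.42 to -0.04). Ugt2b35 is the member whose interval excludes 0. Ugt2b36 had 475 in the GW4064 library and 334 in the vehicle library (-0.00). Ugt2b5 had 530 in the GW4064 library and 380 in the vehicle library (-0.03). These middle genes sit at the level of the whole class of local contacts. Ugt2b37, over its 2 bins, had 746 in the GW4064 library and 474 in the vehicle library (0.15, -0.02 to 0.31). Ugt2a3 had 627 in the GW4064 library and 445 in the vehicle library (-0.01), and Ugt2b38 had 525 in the GW4064 library and 362 in the vehicle library (0.03). Raw counts were higher in the GW4064 library for every member, as its depth gives, and log2 ratios were above 0 for 2 members and below 0 for 6.

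Those signs follow from the scaling. Local contacts made up 23.6% of the GW4064 library and 21.2% of the vehicle library, and scaling to all contacts instead adds 0.15 to every local log2 ratio, after which 7 members are above 0 and 1, Ugt2b35, below. Over 16895 protein-coding loci the median local log2 ratio was -0.15, and the median of the 8 members was -0.02.

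Contacts within a bin, between positions under 50 kb apart, had their highest log2 ratios among the members at the Ugt2b38 end of the cluster, while bins without a member reached 0.37. Ugt2b38 had 241 in the GW4064 library and 137 in the vehicle library (log2 ratio 0.35, 0.04 to 0.66). Ugt2a3 had 261 in the GW4064 library and 161 in the vehicle library (0.23, -0.06 to 0.52), and Ugt2b37 had 377 in the GW4064 library and 238 in the vehicle library (0.20, -0.04 to 0.44). Toward the other end the values were lower. Ugt2b1 had 247 in the GW4064 library and 193 in the vehicle library (-0.11), and Ugt2b34 had 465 in the GW4064 library and 352 in the vehicle library (-0.07). Ugt2b35 had 210 in the GW4064 library and 151 in the vehicle library (0.01), and Ugt2b36 had 227 in the GW4064 library and 145 in the vehicle library (0.18). Ugt2b5 had 176 in the GW4064 library and 135 in the vehicle library (-0.09). Only the interval of Ugt2b38 excludes 0.

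Over the whole cluster the same-bin contacts were 2676 in the GW4064 library and 1727 in the vehicle library (log2 ratio 0.16, 0.08 to 0.25). Contacts with other chromosomes were 2748 in the GW4064 library and 2297 in the vehicle library (0.19, 0.11 to 0.27). These 2 classes were above 0. Local contacts, 3757 in the GW4064 library and 2694 in the vehicle library, had a log2 ratio of -0.03 (-0.10 to 0.04). Those over 1 Mb on the same chromosome, 3807 in the GW4064 library and 2949 in the vehicle library, had 0.04 (-0.03 to 0.11). All contacts together, 12988 in the GW4064 library and 9667 in the vehicle library, gave 0.07 (0.03 to 0.11), and the members with intervals above 0 there were Ugt2b36, Ugt2b37 and Ugt2b38.

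Between chromosomes the members above 0 were Ugt2b5, with 214 contacts in the GW4064 library and 161 in the vehicle library (0.34, 0.04 to 0.64), Ugt2b38, with 235 in the GW4064 library and 178 in the vehicle library (0.33, 0.04 to 0.62), and Ugt2b37, with 449 in the GW4064 library and 359 in the vehicle library (0.25, 0.05 to 0.46). Contacts between chromosomes were a smaller share of the GW4064 library, 18.4%, than of the vehicle library, 22.4%, and scaling to all contacts lowers each of these values by 0.28. That is enough to bring the cluster's 0.19 below 0.

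Bin by bin, 0 of the 12 bins had a local log2 ratio of 0.32 or more, against 5.73% of 49090 bins, and 0 had -0.32 or less, against 12.5%. The lowest was the bin of Ugt2b35 at -0.23 and the highest a bin of Ugt2b37 at 0.20 (-0.02 to 0.44). For same-bin contacts 4 of the 12 (33.3%) passed the same limit above 0, against a background of 9.57%, and 0 below, against 9.52%. Of these 4 bins, 3 are the ones that hold no member and the other is the bin of Ugt2b38. The bins are also rich in contacts: the median bin of the cluster had 225 same-bin contacts in the GW4064 library and 142.5 in the vehicle library, where the median of all bins with a contact was 152 in the GW4064 library and 111 in the vehicle library. A contact count of this assay depends on Foxa2 binding as well as on folding, and these cannot be told apart here.

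**Figure D3:**
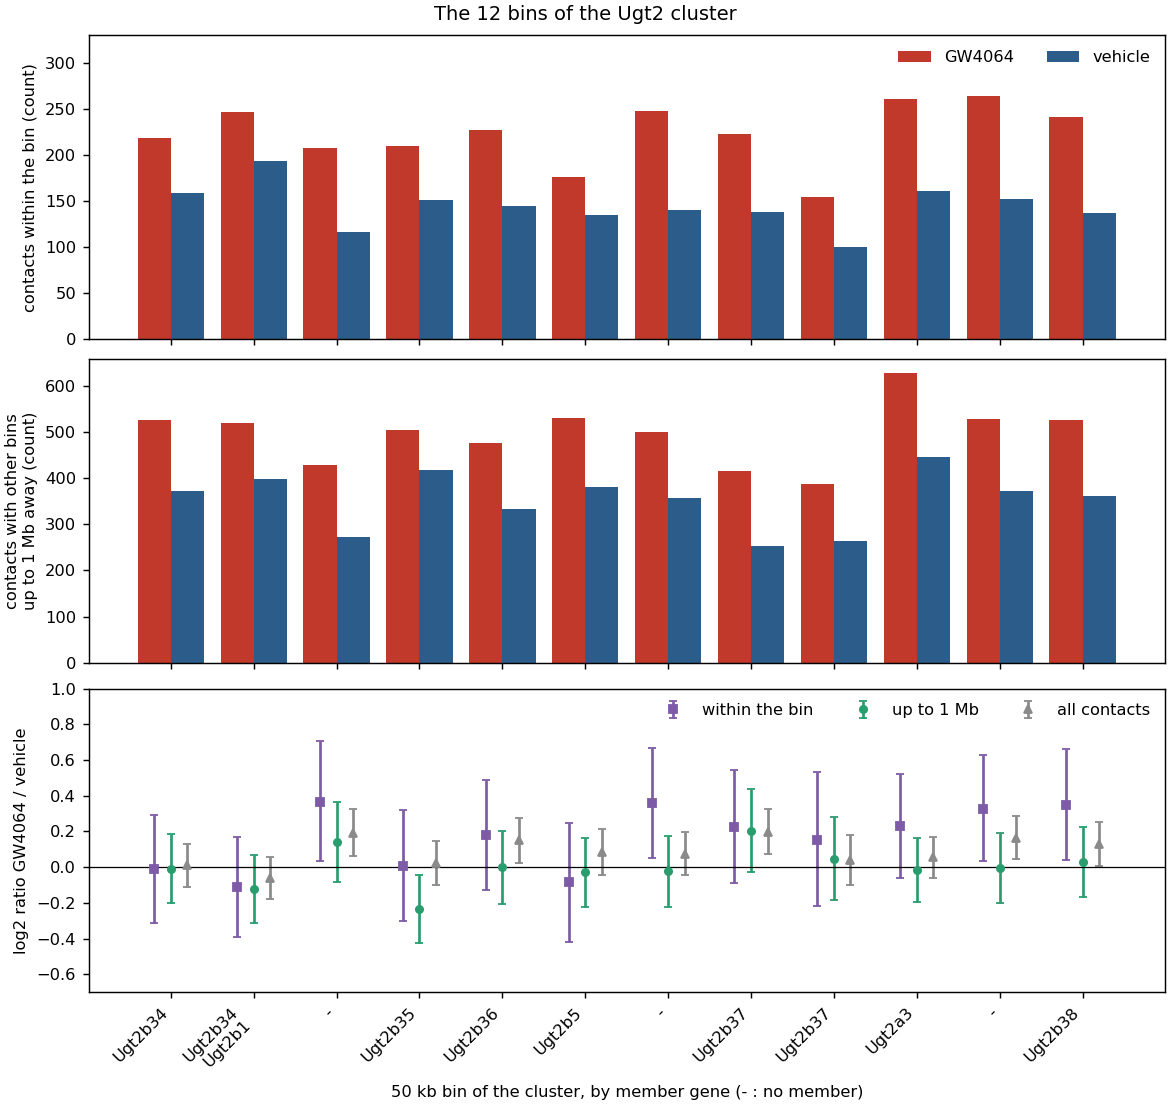
The 12 bins of the Ugt2 cluster in genome order, with GW4064 counts left of vehicle counts for contacts within the bin (top, number of contacts) and local contacts (middle, number of contacts), and the log2 ratio of GW4064 over vehicle with 95% counting intervals for within-bin, local and all contacts (bottom). Local log2 ratios lie between -0.23 and 0.20, and the within-bin ratios of 4 bins have intervals above 0.

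At a 500 kb window fewer contacts crossed the edge on the far side of Ythdc1 than the edge after Ugt2b38, in both libraries. Insulation here is log2 of the mean contacts that cross a bin edge within 500 kb, over the chromosome's mean, so low values mark borders. The low point nearest the first member lay 50 kb before the first cluster bin, at the far side of Ythdc1, with -0.10 in the GW4064 library and 0.19 in the vehicle library. It was 0.78 deep relative to the lower of its neighbouring peaks in the GW4064 library and 0.46 deep in the vehicle library. On chromosome 5, 48.5% of 2938 edges were as low or lower in the GW4064 library and 64.8% in the vehicle library, so the level itself is ordinary. The lower neighbouring peak lay outside the cluster, at chr5:86550000, with 0.68 in the GW4064 library and 0.66 in the vehicle library. Inside the cluster the curve reached 1.31 in the GW4064 library and 1.35 in the vehicle library, at chr5:87100000.

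Within the cluster the curve stayed high, with 1 shared dip between Ugt2b5 and Ugt2b37, at 1.11 in the GW4064 library and 1.12 in the vehicle library. At the other end, the edge after Ugt2b38 had 0.55 in the GW4064 library and 0.50 in the vehicle library. The next edge outward was little higher, 0.60 in the GW4064 library and 0.53 in the vehicle library. Farther out the curve fell lower, to 0.13 in the GW4064 library at chr5:87650000 and -0.05 in the vehicle library at chr5:87700000. The depth after Ugt2b38 was 0.28 in the GW4064 library and 0.11 in the vehicle library. It was taken to the level at chr5:87950000, beyond that fall, so it does not describe a border at this edge. The GW4064 library has a further shallow dip, 0.03 deep, before Ugt2b35 that the vehicle library lacks. At the 500 kb window the vehicle library also had a low point 150 kb before the first cluster bin, at 0.19. At a 1 Mb window both libraries had a low point there, at 0.13 in the GW4064 library and 0.25 in the vehicle library. At that window the vehicle library keeps neither the low point beside Ythdc1 nor that after Ugt2b38. The GW4064 library keeps both, the second only 0.011 deep. No replicate gives a spread for these values.

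**Figure D4:**
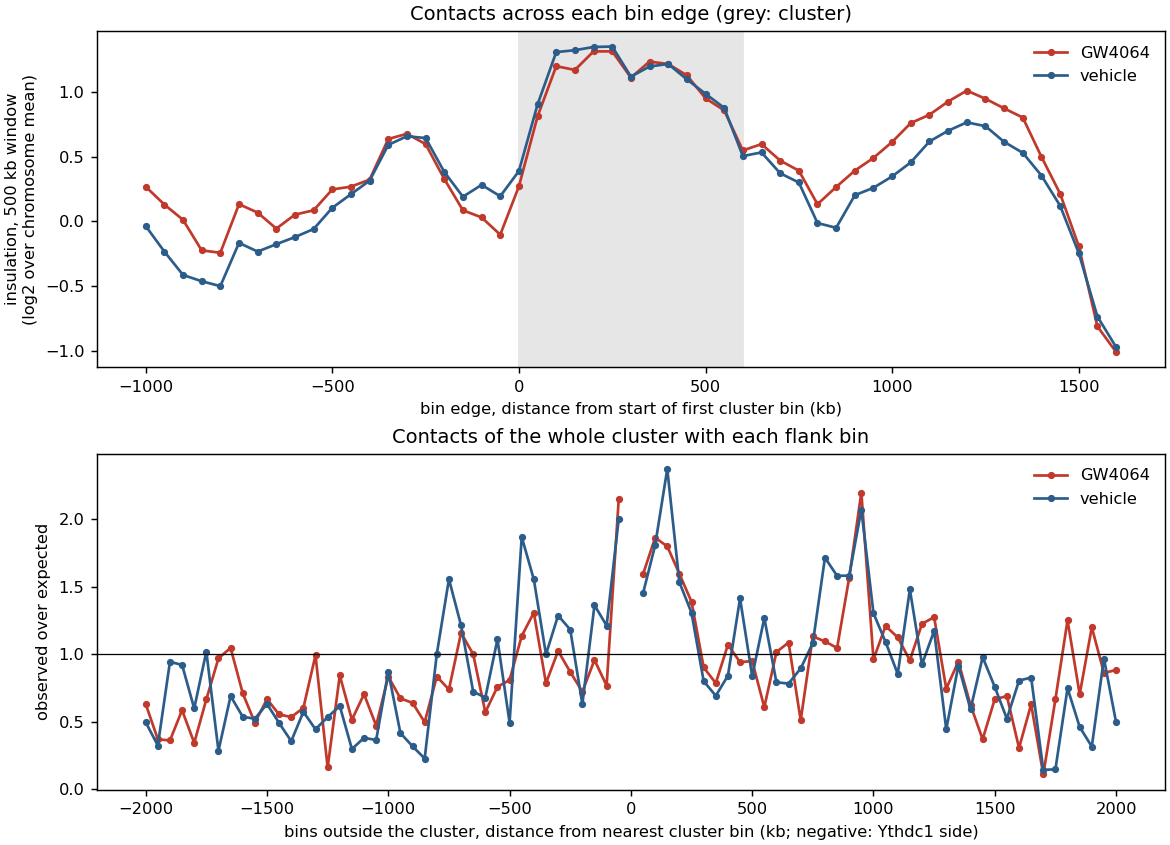
Top: insulation at each bin edge (log2 of the mean contacts across the edge within 500 kb over the chromosome mean) against distance in kb from the start of the cluster, which is shaded, for the GW4064 and vehicle libraries. Bottom: observed over expected contacts of the whole cluster with each 50 kb bin outside it, against distance in kb, negative on the Ythdc1 side. The curve peaks over the cluster in both libraries, and the bin of Ythdc1 next to the cluster has 2.15 in the GW4064 library and 2.00 in the vehicle library.

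Ythdc1, which encodes a nuclear reader of methylated adenosine in RNA, lies at chr5:86803980-86836659 beside the cluster and shared its contacts. Its bin had 250 contacts with the cluster in the GW4064 library (2.15 times expected) and 163 in the vehicle library (2.00 times expected). With the bin of Ugt2a3 it had 26 in the GW4064 library, 7.28 times expected (4.75 to 10.7), and 19 in the vehicle library, 7.60 times (4.57 to 11.9). With Ugt2b37 it had 40 in the GW4064 library and 12 in the vehicle library (log2 ratio 1.21, 0.25 to 2.28). Of 63 combinations of a neighbouring gene with the cluster or a member, 5 had an interval that excludes 0, and this was the 1 above it. The other 4 come from the bin that Sult1d1 and Sult1e1 share, so that each value is listed for both genes, with counts of 9 or fewer.

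On the other side, Ugt2a1 at chr5:87459490-87490871 and Ugt2a2, which overlaps it, are Ugt2 genes, the first of them known from olfactory tissue. Their bin had 185 contacts with the cluster in the GW4064 library (1.59 times expected) and 118 in the vehicle library (1.45 times expected). The sulfotransferase genes beyond it, named after their values had been seen, were also above expected: 1.86 in the GW4064 library and 1.81 in the vehicle library for the bin of Sult1b1, and 1.80 in the GW4064 library and 2.37 in the vehicle library for that of Sult1d1 and Sult1e1. Sulfation, like glucuronidation, conjugates steroids and bile acids in liver.

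Farther out the excess was smaller and uneven. Within 250 kb the flank on the Ythdc1 side had 445 contacts with the cluster in the GW4064 library (1.26 times expected) and 345 in the vehicle library (1.41 times expected), of which 250 in the GW4064 library and 163 in the vehicle library came from the bin of Ythdc1. At 1 to 2 Mb this side had 0.611 times expected in the GW4064 library and 0.533 in the vehicle library. The Ugt2a1 side had 585 contacts within 250 kb in the GW4064 library (1.66 times expected) and 411 in the vehicle library (1.68 times expected), and at 1 to 2 Mb it had 0.844 times in the GW4064 library and 0.768 in the vehicle library. Between 500 and 1000 kb the Ugt2a1 side had 1.08 times expected in the GW4064 library (0.938 to 1.23) and 1.26 times in the vehicle library (1.09 to 1.46). A bin 950 kb out on that side, singled out after its values had been seen, had 2.20 times expected in the GW4064 library (1.54 to 3.04) and 2.07 times in the vehicle library (1.34 to 3.06). The fall with distance was thus not smooth on the Ugt2a1 side. The 2 Mb flanks together held 2048 contacts in the GW4064 library and 1535 in the vehicle library, with a log2 ratio of -0.06 (-0.16 to 0.03). Intervals of all 8 combinations of side and distance range included 0.

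Contacts of the Ugt2 cluster with the albumin family and with the Cyp3a cluster, both on the same chromosome, were few in number. Those with Cyp3a were nonetheless above the number expected at that distance, though the interval of the vehicle library included 1. The albumin family bins, 3050 kb past the end of the Ugt2 cluster, shared 13 contacts with it in the GW4064 library (0.917 times expected) and 10 in the vehicle library (0.885 times expected). The Cyp3a cluster, 57900 kb away, shared 25 in the GW4064 library, 2.25 times expected (1.45 to 3.32), and 16 in the vehicle library, 1.71 times (0.978 to 2.78). Cyp3a enzymes oxidise many of the drugs that Ugt2b enzymes conjugate. Expected numbers here came from chromosome 5 alone.

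Compared with 3 other families of drug and steroid metabolism, the Ugt2 cluster differed most in its flanks, where its own value was near the background. Over 3819 windows the median flank log2 ratio was 0.0066, and the other families lay farther below it than the Ugt2 cluster did. The Ugt2 flank log2 ratio of -0.06 exceeded that of the Cyp3a cluster (17 bins), -0.50, by 0.44 (0.29 to 0.58). It exceeded that of the Cyp2c cluster (24 bins), -0.47, by 0.41 (0.28 to 0.54), and that of the Ugt1a locus (4 bins), -0.54, by 0.47 (0.31 to 0.64). For local contacts the Ugt2 ratio was above that of Cyp3a by 0.26 (0.16 to 0.36), of Cyp2c by 0.10 (0.01 to 0.19) and of Ugt1a by 0.45 (0.30 to 0.59). Each of these intervals, from the counts alone, lies above 0. None of the differences was corrected for gene density, with which local log2 ratios moved.

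Inside contacts set the Ugt2 cluster apart less evenly. Its log2 ratio of 0.02 was at the median of 50081 sliding windows of 12 bins, 0.02, with 5th and 95th percentiles of -0.42 and 0.26. The Ugt2 log2 ratio exceeded that of Cyp3a by 0.23 (0.10 to 0.36) and that of Ugt1a by 0.40 (0.12 to 0.68), while the difference from Cyp2c, 0.09, had an interval from -0.03 to 0.20. In observed over expected, the other families had lower values over their whole regions: 1.55 in the GW4064 library and 1.79 in the vehicle library for Cyp3a, 1.68 in the GW4064 library and 1.76 in the vehicle library for Cyp2c, and 1.41 in the GW4064 library and 1.84 in the vehicle library for Ugt1a. These regions differ in size, and observed over expected changed with distance inside the Ugt2 cluster, so the values are not matched. A window of 12 bins with Cyp3a genes had 2.00 in the vehicle library, where it ranked 5. Between chromosomes the Ugt2 and Cyp2c clusters both had a log2 ratio of 0.19, and their difference had an interval of -0.10 to 0.09.

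**Figure D5:**
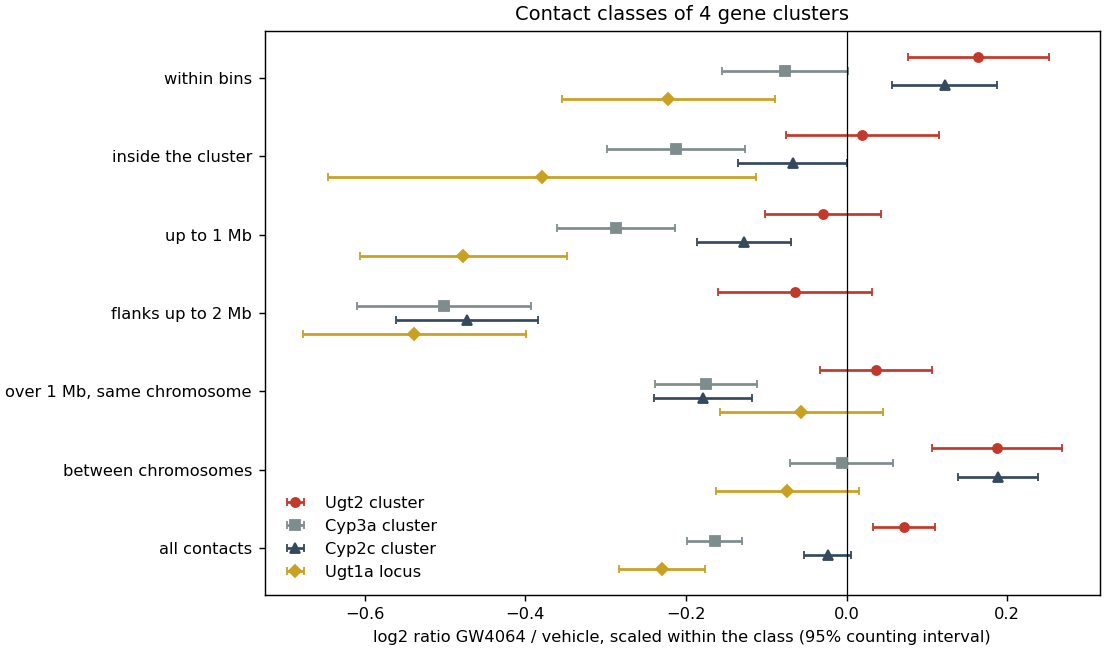
Log2 ratio of GW4064 over vehicle for 7 classes of contact, scaled within each class, in the Ugt2 cluster, the Cyp3a cluster, the Cyp2c cluster and the Ugt1a locus, with bars for 95% counting intervals. For flanks up to 2 Mb the Ugt2 cluster is at -0.06 while the other families lie between -0.54 and -0.47.

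Among other genes of glucuronidation, many loci had fewer local contacts in the GW4064 library relative to the class. The list held 28 genes, which form 19 loci: the other Ugt genes, enzymes and carriers that supply UDP-glucuronic acid, the glucuronidase Gusb, exporters of conjugates, and factors that regulate Ugt genes. At a log2 ratio of -0.32 or less for local contacts, 9 of the 19 (47.4%) were lower, against 28.8% of 16895 protein-coding loci, and 0 were as far above 0, against 1.54%. At 1.5-fold 3 were lower, against 8.98%. The median over the list was -0.31 on the log2 scale, beside -0.15 for the 16895 loci. Lowest was Abcc3, an exporter of glucuronides into blood, with 340 local contacts in the GW4064 library and 385 in the vehicle library (-0.69, -0.90 to -0.47).

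At the top of the list stood the next gene outside the cluster. Ugt2a1 with Ugt2a2 had 458 local contacts in the GW4064 library and 277 in the vehicle library (0.22, -0.00 to 0.44), and Ahr, the aryl hydrocarbon receptor, had 824 in the GW4064 library and 556 in the vehicle library (0.06, -0.10 to 0.22). Ugdh, which makes UDP-glucuronic acid, had 268 in the GW4064 library and 265 in the vehicle library (-0.49, -0.74 to -0.24). Nr1h4, which encodes FXR, had 533 in the GW4064 library and 463 in the vehicle library (-0.31, -0.49 to -0.12). Gene density moves with these values: after the median of bins with as many protein-coding genes in the 21 bins around them is taken off, the cluster's local log2 ratio of -0.03 becomes 0.15.

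Most like the cluster in the log2 ratios of its 4 classes, same-bin, local, over 1 Mb and between chromosomes, were 5 loci, among them those of Eya4 on chromosome 10, Srsf11 on chromosome 3, Zfp317 on chromosome 9 and Olfr1303 on chromosome 2. Euclidean distances of the 5 from it ran from 0.0287 to 0.0385, where the median of 16887 loci was 0.559. Eya4 encodes a transcriptional coactivator, Srsf11 a splicing factor, Zfp317 a zinc finger protein and Olfr1303 an olfactory receptor.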

How the data were processed

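Contacts were measured by Foxa2 HiChIP in liver, with 1 library per treatment. Per the submitters' processing notes, the authors aligned reads to mm10 with Bowtie2 2.2.9 and ran HiC-Pro. For HiC-Pro no version, filter or duplicate setting is given in the sources used here. Deposited matrices hold raw counts of contacts per pair of 50 kb bins, without normalization. The deposited bin tables hold positions and a bin number, an index, and are identical for both libraries.

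Genes came from a RefSeq table of GRCm38.p6. Log2 ratios are GW4064 over vehicle after scaling to equal totals of the class on chromosomes 1 to 19 and X, or to totals at each distance for contacts inside the cluster and with its flanks. Intervals are exact conditional binomial (Clopper-Pearson) for ratios and exact Poisson for observed over expected, at 95%. Differences between clusters used the summed variances of both ratios. A locus is every bin that overlaps a gene. Counts of calls used a log2 ratio of 0.32 either way with at least 200 local contacts, or 1.5-fold with at least 20 contacts for bin pairs. Members of the cluster, lists and comparisons were chosen with earlier results of these data known. Named genes were the 8 members, the genes next to the cluster, the 2 highest and 2 lowest loci of the pathway list, the highest and lowest bins, the 3 highest and lowest pairs, and the 5 nearest loci. Of these, 2 genes are not reported here. Sult1 genes, Ugdh, Nr1h4 and the genes of the next windows were named after their values were seen. Promoters were compared by global alignment. Other scalings, distance limits, thresholds and windows were tried. Software was scipy 1.17.1, numpy 2.4.6, Biopython 1.88, pandas 2.3.3 and matplotlib 3.10.9 in Python 3.11.15, and the calculations were tested on simulated data.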

Additional observations from a re-analysis of the deposited data

How the results depend on the processing

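With 1 library per treatment no value here has a replicate, so differences between libraries and between treatments cannot be told apart. No paired analysis was possible because each treatment has 1 library. Scaled to all contacts, the log2 ratio of the cluster became 0.28 for same-bin, 0.13 for local, 0.17 for inside and 0.062 for flank contacts. Scaled to the median protein-coding locus, it became 0.28 for same-bin, 0.12 for local and 0.24 for all contacts. Less gene density, local contacts gave 0.15, and scaled to chromosome 5 all contacts gave 0.12. Local contacts within 500 kb gave 0.015, and flank contacts stayed below 0 under the other alternatives run. Expected from distance and the total contacts of both bins, inside contacts were 1.47 times expected in the GW4064 library and 1.63 in the vehicle library. From distance and contacts over 1 Mb or between chromosomes, an expectation chosen after the data were seen, they were 2.57 times in the GW4064 library and 2.81 in the vehicle library. Bins with a log2 ratio of 0.32 or more numbered 4 with same-bin contacts. At 2-fold, inside pairs numbered 2 higher and 0 lower, and at 1.5-fold the pathway list had 3 lower loci. Insulation at the edge beside Ythdc1 became -0.25 in the GW4064 library and 0.042 in the vehicle library with a 250 kb window, and 0.16 in the GW4064 library and 0.32 in the vehicle library with 1 Mb, where the vehicle library has no low point at that edge. Ugt2b35 was at 0.0079 for same-bin in place of local contacts. Of the 51 alternatives for values of the cluster and counts of the pathway list, 30 stayed within counting error or 1.5 times the count. The cause was not tested for any value that moved. Depth limits single pairs, of which 11 of the 66 inside the cluster had under 20 contacts.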
